A study of Homo sapiens with 9 samples.

Results

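TC32 is an established human Ewing sarcoma cell line, and its transcriptome was described here in the untreated state, from the 3 vehicle libraries of a series of 9 bulk RNA-seq libraries in 3 groups. The series compared TC32 cells given vehicle with cells given recombinant Wnt3a alone or Wnt3a followed by the TGF-beta receptor inhibitor SB-505124, and the 6 libraries from stimulated cells were not used. Vehicle cells were grown in RPMI 1640 medium with 10% fetal bovine serum, received PBS for 4 h in place of Wnt3a, and then DMSO for 24 h in place of the inhibitor. The cells are therefore serum-fed and solvent-exposed, and they stand for 1 line in 1 culture condition. The labels number the libraries 1 to 3 but do not say whether they came from separate cultures, so the spread given below is a spread between libraries and may be technical. No library was compared with another treatment, no test was run and no p-value is given.

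Ewing sarcoma is a tumour of bone and soft tissue driven by a chromosomal fusion, most often EWSR1-FLI1, that joins the activation domain of EWSR1 to the DNA-binding domain of the ETS factor FLI1. The fusion protein binds GGAA repeats, where it opens chromatin and activates genes such as NR0B1 and NKX2-2, and it lowers the expression of many mesenchymal genes. The cell of origin is debated, with mesenchymal stem cells and neural crest derivatives as the usual candidates, and the tumour cells carry features of both.

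Levels are given in TPM, the abundance of a gene's transcripts scaled by their length and to the same total in every library, so that genes can be compared within a library. A protein-coding gene is called expressed where its mean over the 3 libraries was at least 1 TPM. Of 19791 protein-coding genes, 12054 (60.9%) were expressed by this rule, 8004 (40.4%) reached 10 TPM and 1383 (6.99%) reached 100 TPM. A further 5339 (27.0%) were under 0.1 TPM, and 3016 (15.2%) had no count in any library. These shares are the background against which the gene groups below are read. The 1383 most abundant genes held 73.1% of all protein-coding TPM, and the median was 4.69 TPM over all protein-coding genes and 18.1 TPM over those expressed. The threshold falls in a continuous distribution: 114 genes lay between 1 and 1.1 TPM and 131 between 0.9 and 1 TPM, so single genes near it carry no firm call. Of 14452 long non-coding RNA genes, 1303 (9.02%) were at or above 1 TPM.

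The 3 libraries held 34348339 to 38637007 assigned read counts and differed from each other by more than counting noise (chi-square over its degrees of freedom, 6.83 to 37.4 between pairs). Libraries 1 and 3 were alike, while library 2 stood apart: of the 8004 genes at 10 TPM or more, 57 differed over 2-fold between libraries 1 and 2 and 67 between 2 and 3, against 7 between 1 and 3. Library 2 was also the deepest, and the genes of the mitochondrial genome held 7.44% of its TPM, against 9.31% in library 1 and 8.51% in library 3. The part of either in the results was not tested. Values of 3 libraries are given in the order 1, 2, 3, and a value after ± is an SD over the 3 libraries (n = 3). A gene without a count is given with the upper limit that 3 counts over the 3 libraries would set, which ranged from 0.0056 to 0.0829 TPM over the 105 list genes without a count. Limits of this kind cover counting error only.

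**Figure D1:**
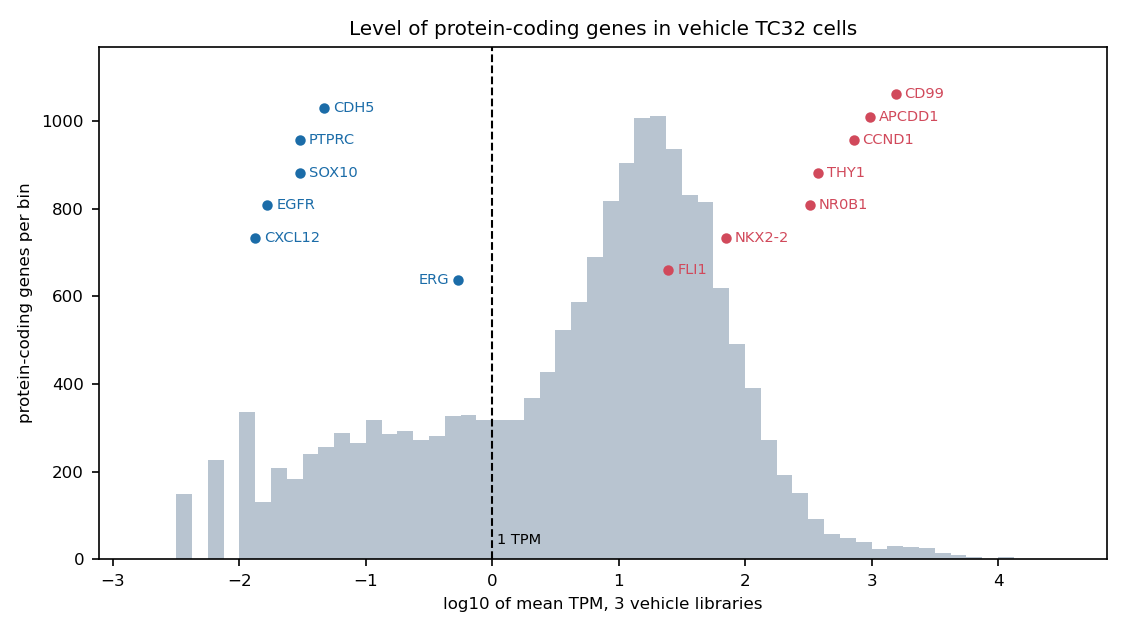
Distribution of the mean TPM of protein-coding genes on a log10 axis (x), with the number of genes per bin (y) and the 1 TPM threshold as a dashed line. Genes without a count are not drawn. Points mark named genes at their level only, and their height has no meaning; CD99, APCDD1, CCND1, THY1 and NR0B1 lie above 100 TPM (red), NKX2-2 and FLI1 between 10 and 100 TPM (red), ERG under 1 TPM, and CDH5, PTPRC, SOX10, EGFR and CXCL12 under 0.1 TPM (blue).

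The 5 genes chosen to mark these cells were all abundant, each above 60 TPM in every library. NR0B1 (ENSG00000169297, hg38 chrX:30304206-30309598), a nuclear receptor activated by the fusion through a GGAA repeat, had 297, 381 and 301 TPM (326 ± 47.9). NKX2-2 (chr20:21511010-21514026), a homeobox repressor used in diagnosis, had 72.7, 64 and 73.7 TPM (70.1 ± 5.33). CCND1 (chr11:69641087-69654474), cyclin D1, had 756, 589 and 817 TPM (721 ± 118). These genes did not share an order of libraries: library 2 was the highest for NR0B1 and the lowest for NKX2-2 and CCND1. APCDD1 (chr18:10454628-10489948), a membrane inhibitor of Wnt signalling, had 1018, 779.5 and 1106 TPM (968 ± 169). THY1 (chr11:119417378-119424985), the CD90 surface protein of mesenchymal and neuronal cells, had 302, 494 and 340.2 TPM (379 ± 102). Library 2 held the lowest APCDD1 value and the highest THY1 value. CD99, the surface glycoprotein stained to diagnose the tumour, had 1596, 1454 and 1597 TPM, with an SD of 5.28% of its mean.

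Upstream sequence differed with expression level in base composition. In the 250 bases before the start of 14890 matched protein-coding genes (RefSeq, GRCh38.p14), the median number of CG dinucleotides was 4 for genes under 0.1 TPM, 11 from 0.1 to 1 TPM, 20 from 1 to 10 TPM, 22 from 10 to 100 TPM and 21 at 100 TPM or more. The motif TATAAA, sought on both strands, was in 18.3% of windows in the lowest band, 4.34% from 10 to 100 TPM and 7.23% in the highest. The following 4 windows show the range, trimmed to their longest stretch outside annotated exons and written 5′ to 3′ on the gene's strand, with CG dinucleotides in capitals: APCDD1 and CXCR4 from genes above 100 TPM, MYOG from a muscle gene without a count, and IGF1 as an expressed gene whose window has no CG at all. They run from chr18:10454385-10454627 (plus strand) for APCDD1, chr2:136118166-136118399 (minus) for CXCR4, chr12:102481748-102481997 (minus) for IGF1 and chr1:203086037-203086262 (minus) for MYOG.
APCDD1: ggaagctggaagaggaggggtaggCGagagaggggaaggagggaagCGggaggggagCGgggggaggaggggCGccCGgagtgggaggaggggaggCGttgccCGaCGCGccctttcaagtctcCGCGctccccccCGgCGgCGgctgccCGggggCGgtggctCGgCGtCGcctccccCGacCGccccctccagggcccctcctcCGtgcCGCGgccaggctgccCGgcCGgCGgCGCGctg
CXCR4: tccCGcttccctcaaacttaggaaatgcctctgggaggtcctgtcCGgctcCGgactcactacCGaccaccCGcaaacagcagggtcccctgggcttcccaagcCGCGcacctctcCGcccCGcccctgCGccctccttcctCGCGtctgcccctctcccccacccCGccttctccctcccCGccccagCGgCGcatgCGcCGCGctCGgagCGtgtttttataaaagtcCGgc
IGF1: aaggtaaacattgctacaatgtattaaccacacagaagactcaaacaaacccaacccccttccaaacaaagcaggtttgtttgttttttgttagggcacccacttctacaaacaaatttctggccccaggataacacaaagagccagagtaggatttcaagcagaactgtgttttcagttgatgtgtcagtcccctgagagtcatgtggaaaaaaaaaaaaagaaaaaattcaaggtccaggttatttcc
MYOG: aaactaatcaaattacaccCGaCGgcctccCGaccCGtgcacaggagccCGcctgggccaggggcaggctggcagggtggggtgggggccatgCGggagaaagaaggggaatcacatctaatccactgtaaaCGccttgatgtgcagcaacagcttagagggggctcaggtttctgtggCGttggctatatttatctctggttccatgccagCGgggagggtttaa
The APCDD1 stretch has 29 CG in 243 bases and 79.0% G and C, the CXCR4 stretch 22 in 234 bases and 68.4%, the IGF1 stretch 0 in 250 bases and 39.6%, and the MYOG stretch 9 in 226 bases and 57.5%. CXCR4 is the one of the 4 with TATAAA. The ETS core GGAA, read on both strands, was in 92.6% of all windows and in 91.9% of those of genes reported as activated by the fusion. Its tandem repeat GGAAGGAA was in 3.10% of all windows and in 1 of 37 (2.70%) windows of genes reported as activated by the fusion, that of CAV1. These counts are limited by the choice of start: the RefSeq start lay within 50 bases of the GENCODE 29 start of the gene for 48.7% of all windows and for 15 of the 37, and it did not for NR0B1, NKX2-2 and other members. A motif match in these windows is a description of the letters, and a repeat farther from the start was not looked for.

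Both partner genes of the fusion were expressed. EWSR1 had 193, 217 and 214 TPM and FLI1 27.2, 22.3 and 24.7 TPM, and because values are per gene, native and fusion transcripts are summed in both. The related RNA-binding gene TAF15 was at 186 ± 7.71 TPM. Among alternative fusion partners, ERG had 0.51, 0.41 and 0.68 TPM, ETV4 0.367 TPM and FEV 0.313 TPM, all below the threshold, while ETV1 was at 7.83, 3.78 and 10.1 TPM. ETV5 had 10.1, 2.03 and 11.7 TPM, lowest in library 2 by a wide margin. In all, 10 of 14 genes of the group were expressed (71.4%, against 60.9% of all protein-coding genes). ETS1, a family member abundant in lymphocytes, was at 0.31 TPM.

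Genes reported in the literature as activated by EWSR1-FLI1 were nearly all expressed, and so were most genes reported as repressed. Of 48 activated genes, 46 (95.8%) were expressed, 40 reached 10 TPM and 16 reached 100 TPM, with a median of 56.8 TPM. Of 39 repressed genes, 35 (89.7%) were expressed, 23 reached 10 TPM and 6 reached 100 TPM, with a median of 17.9 TPM. Over all protein-coding genes, 60.9% were expressed, 40.4% reached 10 TPM and 6.99% reached 100 TPM. Both lists were chosen with earlier results of these data known, so neither count is independent evidence on the fusion, and without cells lacking the fusion a level does not show activation or repression. The activated genes led with CAV1, caveolin-1, at 2075, 1443 and 2131 TPM, and included the HLH inhibitor ID2 (724 ± 61.2 TPM), CCND1 and the Fc receptor FCGRT (625 ± 48.5 TPM). Library 2 had the lowest CAV1 value. Well-known members at intermediate level were the metalloreductase STEAP1 (161 ± 27.2 TPM), the lipase-family gene LIPI (84.9 ± 3.07 TPM), the protein kinase C gene PRKCB (95.3 ± 25.9 TPM), the methyltransferase EZH2 (55.7 ± 1.9 TPM), the transcription factor BCL11B (26.6 ± 1.21 TPM) and SOX6 (35.1 ± 9.41 TPM). CCK, which encodes the peptide hormone cholecystokinin, had 220.3, 83 and 226 TPM. At the low end were GLI1 (3.62, 8.19 and 3.76 TPM), the telomerase gene TERT (2.48 ± 0.832 TPM) and SOX2 (2.5, 6.33 and 2.1 TPM), whose mean is 2.3 TPM without library 2. The 2 members below the threshold were PRAME (0.233 TPM) and the Notch-modifying glycosyltransferase MFNG, which had no count (at most 0.0423 TPM).

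The repressed list held several of the more abundant structural genes of the cells. ACTA2, smooth muscle actin, was at 544, 478 and 495 TPM, fibronectin (FN1) at 480.5, 442 and 484 TPM and the actin-binding gene TAGLN at 480.4, 409 and 413 TPM. The protease inhibitor TIMP1 had 555, 300.0 and 551 TPM. Library 2 was the lowest for TIMP1 by a wide margin. FOXO1, a forkhead factor, had 19 ± 0.469 TPM, and IGFBP3, an IGF-binding protein, had 11.6 ± 0.954 TPM. TGFBR2, the type II TGF-beta receptor and one of the first described repressed targets, was low at 2.69, 2.56 and 2.71 TPM. The members below 1 TPM were the collagen VI chain gene COL6A3 (0.443 TPM), the MAPK inhibitor SPRY1 (0.177 TPM), BMP4 (0.0167 TPM) and the pentraxin PTX3 (0.0133 TPM). THBS1, thrombospondin-1, lay on the threshold at 0.73, 1.47 and 0.81 TPM and was under it without library 2 (0.77 TPM).

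Surface markers used for Ewing sarcoma were expressed for 19 of 20 genes (95%, against 60.9% of all protein-coding genes), 17 of them in every library. At 10 TPM or more were 12 of the 20, beside 40.4% of all protein-coding genes. Beside CAV1 and CD99, the adhesion receptor ADGRG2 had 152 ± 30.0 TPM, the neuronal surface protein LINGO1 133 ± 0.577 TPM, CD276, also called B7-H3, 28.1 ± 2.14 TPM and IL1RAP, the interleukin-1 receptor accessory protein, 43 ± 8.88 TPM. ENPP1, an ectonucleotidase, was at 4.37 ± 0.0964 TPM. The genes of ganglioside synthesis were lower, with B4GALNT1 at 3.95, 7.94 and 5.26 TPM and ST8SIA1 at 1.24, 0.45 and 2.14 TPM. Library 2 had the highest B4GALNT1 and the lowest ST8SIA1 value. PROM1, which encodes CD133, was at 0.0267 TPM. NCAM1, a neural adhesion molecule, had 0.42, 1.81 and 0.82 TPM and was at 0.62 TPM without library 2, while ST8SIA1 was at 0.845 TPM without library 3.

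Among lineage markers, most mesenchymal stem cell and fibroblast genes were expressed, neural genes in part, and few genes of skeletal muscle, bone, fat, vessel or blood. In bulk RNA, fewer cells of a type and less RNA per cell cannot be told apart. Of 15 mesenchymal stem cell markers 11 (73.3%) were expressed, against 60.9% of all protein-coding genes, so the short list lay only somewhat above that share. At 100 TPM or more were 4 of them: vimentin (VIM, 2109 ± 332 TPM), THY1, the integrin ITGB1 (306 ± 11.8 TPM) and the homeobox gene PRRX1 (132, 59 and 137 TPM), lowest in library 2. NT5E, which encodes CD73, and ENG, which encodes CD105, were expressed at 4.21 ± 1.12 and 31 ± 2.95 TPM, so that the genes of CD73, CD90 and CD105 were all present. The stromal genes PDGFRA (0.13 TPM), VCAM1 (0.0433 TPM) and CXCL12 (0.0133 TPM) were below the threshold, as was the intermediate filament gene NES (0.51, 0.33 and 0.58 TPM).

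Neural crest and Schwann cell markers were expressed for 12 of 22 genes, a share of 54.5% that is near the 60.9% of all protein-coding genes. Early patterning factors were present: TWIST1 had 91.9, 95.7 and 115 TPM, ZIC1 34.5, 46.6 and 39 TPM, PAX3 28.4, 24.1 and 32.5 TPM and MSX1 25.4, 26.1 and 29.8 TPM. The neurotrophin receptor NGFR had 26.8, 19.4 and 27.5 TPM and TFAP2A, an AP-2 factor of the neural plate border, 17.1, 12.9 and 17.6 TPM. NGFR, TFAP2A and PAX3 were lowest in library 2 and ZIC1 was highest there. PAX7 had 11.6, 1.63 and 12.4 TPM and was several-fold lower in library 2. Markers of migrating crest and of Schwann cells were split. SNAI2 had 11.7, 7 and 10.8 TPM, the myelin gene MBP 7.12, 4.39 and 7.29 TPM, ERBB3 1.74, 4.87 and 2.31 TPM and the growth cone gene GAP43 2.63, 1.68 and 3.11 TPM. Below the threshold, SOX10 had 0.03 TPM, FOXD3 0.0133 TPM, TFAP2B 0.01 TPM, the glial protein S100B 0.0433 TPM and SOX9 0.423 TPM.

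Neuronal and neuroendocrine markers were expressed for 11 of 26 genes (42.3%, under the 60.9% of all protein-coding genes), and 12 were under 0.1 TPM. UCHL1, the ubiquitin hydrolase PGP9.5, had 735, 889.9 and 717 TPM, the tubulin TUBB3 136, 125 and 142 TPM and the enolase ENO2 58.3, 64.6 and 59.9 TPM. Heavy neurofilament NEFH (16.4 ± 0.488 TPM) was expressed, while medium neurofilament NEFM was at 0.0167 TPM and light neurofilament NEFL had no count (at most 0.0143 TPM). Synaptophysin (SYP) had 4.22, 1.39 and 4.43 TPM. The neurogenic factors NEUROD1 and NEUROG2 and the catecholamine enzyme TH had no count, nor did DCX and STMN2, which encode microtubule regulators of immature neurons. Chromogranin A (CHGA) was at 0.0133 TPM.

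Listed markers of skeletal muscle, of bone and cartilage and of fat were mostly below the threshold. Of 12 skeletal muscle genes only the slow troponin TNNT1 was expressed, at 103, 97.6 and 101 TPM, while the master regulators MYOD1, MYOG and MYF5 had no count. None of 13 bone and cartilage markers reached a mean of 1 TPM. Osteocalcin (BGLAP, 0.69, 1.84 and 0.31 TPM) and matrilin-3 (MATN3, 0.98, 0.47 and 1.28 TPM) came nearest, and the lineage regulators RUNX2 (0.0967 TPM), SP7 (0.0833 TPM) and SOX9 were below it. Of 8 fat markers, CEBPA (2.02 ± 0.18 TPM) and FABP4 (1.4, 0.6 and 1.42 TPM) passed, and PPARG, the fat cell regulator, was at 0.0467 TPM. Fibroblast markers, by contrast, were expressed for 10 of 12 genes (83.3%, against 60.9% of all protein-coding genes). At 10 TPM or more were 5 of the 12, near the 40.4% of all protein-coding genes. Levels ran from ACTA2 down, among those expressed, to FAP (0.88, 2.37 and 0.65 TPM), which was at 0.765 TPM without library 2.

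Most markers of endothelial cells, leukocytes, epithelium and melanocytes were below 1 TPM, and a few were well above it. Of 12 endothelial genes EGFL7 alone passed (30.9, 37.6 and 34.8 TPM), with VE-cadherin (CDH5) at 0.0467 TPM, KDR at 0.01 TPM and VWF without a count. The 12 leukocyte genes included the actin-bundling LCP1 (42.3, 35.8 and 47.3 TPM) and CD68 (2.25 ± 0.797 TPM) above the threshold, while PTPRC, which encodes CD45, was at 0.03 TPM and CD3D, CD3E, CD2 and MS4A1 had no count. Summed over its list, the endothelial TPM ran from 33.18 to 39.73 and the leukocyte TPM from 39.01 to 51.67 per library, nearly all from EGFL7 and LCP1. Among 12 epithelial genes, P-cadherin (CDH3, 36.1, 22.6 and 27.4 TPM), ESRP1 (1.28 ± 0.276 TPM) and KRT18 (1.26 ± 0.218 TPM) passed, and EPCAM (0.327 TPM), KRT8 (0.133 TPM) and CDH1 (0.0933 TPM) did not. Of 6 melanocyte genes PMEL passed (3.31, 5.36 and 2.61 TPM), and TYR and TYRP1 had no count. Of 17 pluripotency and germ cell genes 3 passed: XAGE1B, a cancer-testis antigen, SOX2 and POU5F1 (1.54 ± 0.745 TPM). XAGE1B had 900.5, 914 and 884 TPM, a value that is uncertain because near-identical copies of the gene share its reads.

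HOX genes, which record position along the body axis, were expressed for 27 of 39 genes (69.2%, against 60.9% of all protein-coding genes). Of these, 14 were at 10 TPM or more, spread over all 4 clusters. HOXB13 was the most abundant at 166, 203 and 169 TPM, more than any other HOX gene in every library. HOXC6 (43.3 ± 6.14 TPM), HOXC10 (36.9 ± 3.33 TPM), HOXD10 (27.3 ± 0.852 TPM), HOXC9 (27.3 ± 1.91 TPM), HOXC11 (24.3 ± 5.55 TPM) and HOXD11 (23.3 ± 2.46 TPM) followed. Levels were not uniform along a cluster. By number, HOXB8 at 0.333 TPM and HOXB9 at 0.443 TPM fell between HOXB7 at 19.1 TPM and HOXB13. HOXD13 had 13.5, 16.5 and 14 TPM, beside HOXD12 at 0.223 TPM. In cluster A, HOXA9 (12.2 ± 1.72 TPM) and HOXA10 (9.74 ± 0.811 TPM) were expressed, whereas HOXA11 (0.0333 TPM) and HOXA13 (0.04 TPM) were not. HOXB1 had no count. Neighbouring HOXC4, HOXC5 and HOXC6 share exons, so the split of reads among them is uncertain.

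**Figure D2:**
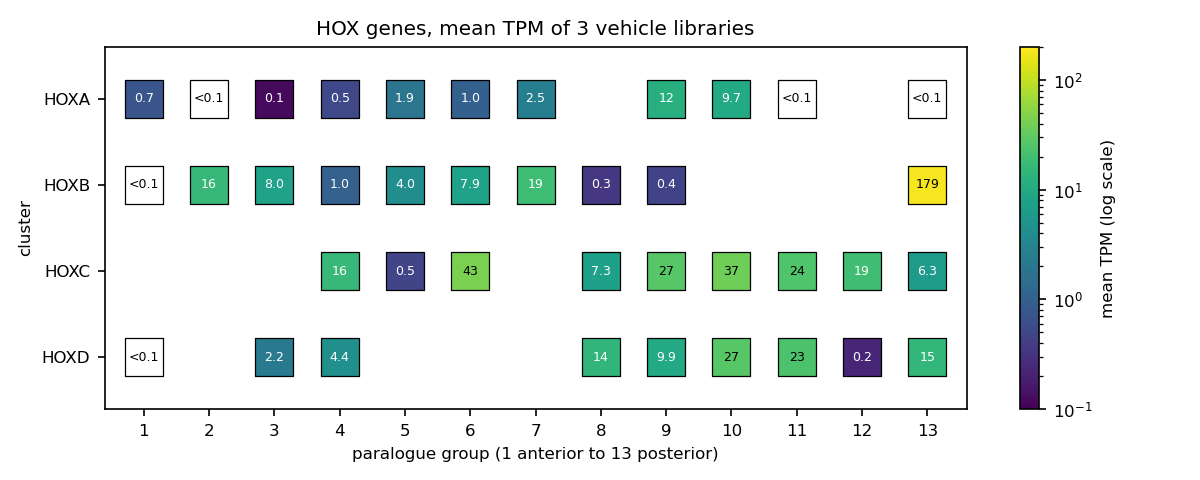
Mean TPM over the 3 vehicle libraries of each HOX gene, by paralogue group (x, 1 anterior to 13 posterior) and cluster (y), with colour on a log scale and the value printed in each square. White squares are under 0.1 TPM. HOXB13 is the highest, and HOXA11 and HOXA13 are white while HOXC10 to HOXC12 and HOXD10 and HOXD11 are above 10 TPM.

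The other developmental factor families were expressed in part. NKX2-2 led 5 of 14 NKX genes, followed by NKX3-2 (23.9 ± 1.57 TPM), NKX2-4 (12.7 ± 2.33 TPM), NKX6-1 (10.0 ± 0.208 TPM) and NKX6-2 (7.24 ± 1.96 TPM). NKX2-1, the lung and thyroid factor, had no count. Of 9 PAX genes 5 passed (55.6%, near the 60.9% of all protein-coding genes). PAX6, at 16.3, 18.2 and 18.5 TPM, was second to PAX3. Of 19 SOX genes 7 passed, led by SOX1 (69.2, 44.8 and 67.6 TPM), a neural progenitor factor that was lowest in library 2, and by SOX6, SOX12 (19.8 ± 1.72 TPM), SOX4 (13.9 ± 2.41 TPM) and SOX11 (13 ± 1.19 TPM). Factors of the mesenchymal transition were expressed for 8 of 11 genes (72.7%, against 60.9% of all protein-coding genes). PRRX1, TWIST1, TCF4 (30.4 ± 6.58 TPM) and ZEB2 (23 ± 1.7 TPM) were above 10 TPM. SNAI1 was low at 1.45 ± 0.338 TPM and TWIST2 was at 0.0767 TPM, against TWIST1 near 100 TPM.

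Receptor tyrosine kinases, which bind growth factors at the cell surface, were expressed for 33 of 58 genes (56.9%), a share close to that of all protein-coding genes. None reached 100 TPM and 13 reached 10 TPM. The collagen receptor DDR2 was the highest by mean, at 90.7, 72 and 104 TPM. EPHA4 had 69.7, 61 and 79.2 TPM, PTK7 56, 65.8 and 60.4 TPM, FGFR1 50.9, 61.4 and 65.7 TPM and KIT 57.4, 45.2 and 66.8 TPM. DDR2 was the highest of these 5 genes in every library, with a range that overlaps that of EPHA4 and lies above those of the other 3. The ranges of PTK7, FGFR1 and KIT overlap one another. DDR1 (50.3 ± 4.8 TPM), EPHB4 (49.1 ± 4.74 TPM), ERBB2 (37.8 ± 7.03 TPM) and PDGFRB (12.6 ± 1.55 TPM) were also above 10 TPM. IGF1R, a therapeutic target in this tumour, had 9.68, 8.31 and 11.2 TPM and its relative INSR 3.53, 3.97 and 5.02 TPM. At lower levels, ALK had 4.54 ± 0.505 TPM, RET 2.97, 1.43 and 3.14 TPM, AXL 1.65 ± 0.0681 TPM and MET 1.25, 0.88 and 1.99 TPM. EGFR was at 0.0167 TPM, from 12 counts over the 3 libraries. FLT3, NTRK2, MUSK, TEK, EPHA6 and EPHA8 had no count.

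**Figure D3:**
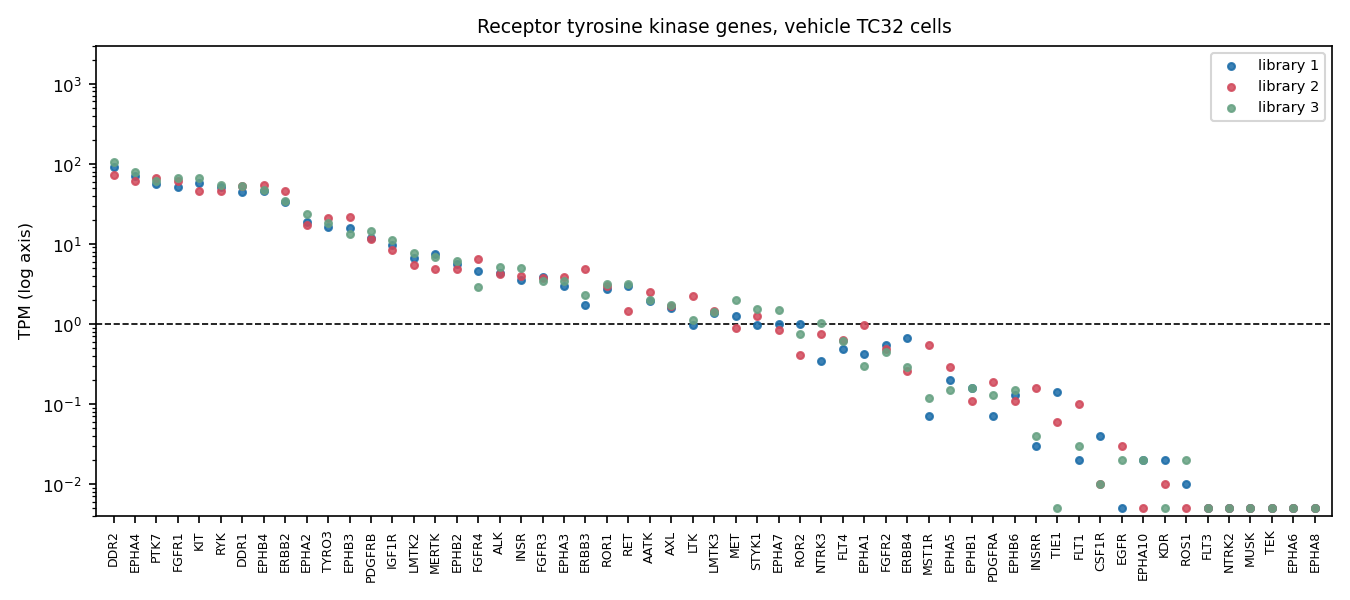
TPM of receptor tyrosine kinase genes (x, by falling mean) in each vehicle library (points; y, log axis), with 1 TPM as a dashed line. Values under 0.005 TPM are drawn at 0.005. The 3 libraries lie close for genes above 10 TPM and scatter below 1 TPM, where few counts stand behind a value.

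Some of these receptors came with an expressed ligand and others did not. For the insulin-like growth factors, IGF1 had 10.5, 20.2 and 10.1 TPM with IGF1R at 9.71 TPM, and IGF2 was at 0.00667 TPM. The IGF1 value was highest in library 2, above the range of the others. IGFBP2, the most abundant binding protein, had 841, 1335 and 880.1 TPM and was also highest in library 2, and IGFBP4 had 147 ± 20.9 TPM. The mRNA-binding genes IGF2BP1 and IGF2BP3, fetal regulators of translation and stability, were at 55.7 ± 8.45 and 22.7 ± 5.78 TPM. For the stem cell factor pair, KIT came with its ligand KITLG at 4.79, 2.69 and 5.81 TPM. For the PDGF family, PDGFC (27.6, 23 and 32.6 TPM) and PDGFD (3.04 ± 0.156 TPM) were expressed with PDGFRB, while PDGFRA and PDGFB (0.01 TPM) were below 1 TPM and PDGFA had no count (at most 0.033 TPM).

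Of 22 FGF genes 3 were expressed. FGF13 (27.3, 14 and 23.7 TPM) and FGF11 (9.83 ± 1.21 TPM) encode intracellular members that do not act as secreted ligands, and FGF2 (2.82 ± 0.175 TPM) was the secreted-type ligand found with FGFR1. Of 11 EGF family ligands NRG1 (10.8 ± 0.978 TPM), EGF (2.31 ± 0.41 TPM) and BTC (1.69, 0.66 and 0.73 TPM) passed, the last at 0.695 TPM without library 1. NRG1 binds ERBB3 (1.74, 4.87 and 2.31 TPM) and ERBB4 (0.407 TPM), the former highest in library 2. Angiogenic ligands included VEGFB (64 ± 2.17 TPM), ANGPTL4 (20.5 ± 3.43 TPM) and VEGFA (18.7, 19.2 and 20.8 TPM). Among ephrins, which bind EPH receptors on adjacent cells, EFNB1 had 365, 386 and 395 TPM, far above EFNA1 (10.2, 21.3 and 10.2 TPM) and the other 6 genes. Midkine (MDK) had 339, 455 and 336 TPM, and of the GDNF family ARTN had 62.4 ± 5.85 TPM and GDNF 13.9, 8.4 and 14.9 TPM. The neurotrophin NTF3 had no count, and BDNF was at 0.03 TPM.

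Chemokine receptors were expressed for 2 of 22 genes (9.09%). CXCR4 had 117, 65 and 132 TPM, lowest in library 2, and CCR10 2.01 ± 0.182 TPM, while 11 of the 22 had no count. The CXCR4 ligand CXCL12 had 1 count in the 3 libraries together, and its other receptor ACKR3 was at 0.377 TPM. Chemokines and cytokines passed for 4 of 24 genes: CCL2 (47, 24.6 and 50.8 TPM), CXCL14 (7.09, 0.98 and 6.33 TPM), CCL7 (2.34, 0.71 and 2.29 TPM) and CXCL16 (1.33 ± 0.257 TPM). The first 3 of these were lowest in library 2. IL6, IL1B, CXCL8, CXCL2 and CSF2 had no count. In the neuropeptide Y system, NPY1R had 54.4, 34.7 and 54.8 TPM, NPY 8.99, 4.66 and 7.92 TPM and NPY5R 5.68, 2.71 and 5.4 TPM. All of them were lowest in library 2, and the protease gene DPP4, whose product trims the peptide, was at 0.403 TPM.

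The Wnt pathway, the one stimulated in the treated libraries, had receptors and transducers at baseline but few ligands. Of 19 Wnt genes WNT5A (22.5, 21 and 22.3 TPM), a ligand usually linked to beta-catenin-independent signalling, and WNT3 (1.17, 1.26 and 1.14 TPM) passed, and 11 were under 0.1 TPM. WNT3A, the ligand used for stimulation, was at 0.0333 TPM. Receptors and co-receptors passed for 15 of 18 genes (83.3%, against 60.9% of all protein-coding genes). RYK had 50.6 ± 4.25 TPM, FZD1 40.0, 32.2 and 41 TPM, FZD4 27.5 ± 3.58 TPM, LRP5 30.2 ± 4.36 TPM and LRP6 7.83 ± 0.698 TPM. The R-spondin receptors LGR4 (18.4, 11.3 and 19 TPM) and LGR5 (6.18, 7.92 and 5.94 TPM) were expressed with RSPO3 (11.1, 3.96 and 11.1 TPM), the only R-spondin gene with a count. Secreted and surface modulators were led by APCDD1, then FRZB (105, 93.3 and 109 TPM), DKK2 (38.3, 30.1 and 40.6 TPM), TPBG (20.5 ± 2.73 TPM) and DKK1 (23.1, 4.87 and 28.9 TPM). DKK1 was the most unequal of these between libraries. SFRP1, SFRP4 and SFRP5 were at or near 0.

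Wnt transducers and feedback genes passed for 15 of 18 genes (83.3%, against 60.9% of all protein-coding genes), with beta-catenin (CTNNB1) at 94.6, 105 and 102 TPM. Among the nuclear partners of beta-catenin, TCF7L1 (19.7, 23.4 and 19.4 TPM), TCF7L2 (9.36 ± 1.65 TPM) and TCF7 (2.05 ± 0.648 TPM) were expressed, while LEF1 was at 0.0267 TPM. Of the listed feedback genes, which many cells switch on when the pathway is active, AXIN2 had 1.12, 1.2 and 1.53 TPM, NKD1 0.62, 1.45 and 1.03 TPM, ZNRF3 3.78 ± 0.793 TPM and NKD2 6.16 ± 1.31 TPM. NKD1 was at 0.825 TPM without library 2. Each was under the median of expressed protein-coding genes (18.1 TPM), and NKD2 was above the median of all protein-coding genes (4.69 TPM). Pathway activity was not measured. RNF43 and TNFRSF19 had no count, which allows at most 0.0123 and 0.0136 TPM.

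TGF-beta signalling, the target of the inhibitor in the treated libraries, had ligands, receptors and every SMAD. Of TGF-beta and activin ligands 7 of 12 passed (58.3%, near the 60.9% of all protein-coding genes). TGFB1 had 119.8, 102 and 119 TPM, TGFB2 45.6, 42.5 and 43.8 TPM and TGFB3 15.8, 15.4 and 16.2 TPM. The signalling receptors were low beside these ligands, with TGFBR1 at 3.21, 3.14 and 3.56 TPM and TGFBR2 at 2.65 TPM. Of the 14 receptor genes of the superfamily 12 passed (85.7%, against 60.9% of all protein-coding genes). They were led by the co-receptor ENG, BMPR1A (24 ± 4.76 TPM), ACVR1 (17.1 ± 1.73 TPM) and ACVR1B (16.2 ± 0.647 TPM). All 8 SMADs passed: SMAD4, the shared partner, had 62.2 ± 5.97 TPM, the TGF-beta SMADs SMAD2 and SMAD3 had 39.6 ± 5.83 and 13.7 ± 1.8 TPM, and the inhibitory SMAD7 had 9.36 ± 0.723 TPM. BMP and GDF ligands passed for 6 of 18 genes (33.3%). GDF6 had 66.5, 32.7 and 65.9 TPM, BMP7 25 ± 3.69 TPM and GDF10 11.7, 6 and 11.6 TPM. GDF6 and GDF10 were lowest in library 2. GDF1 shares its transcript with a neighbouring gene and its value (0.02, 1.68 and 1.47 TPM) is uncertain.

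Notch genes passed for 8 of 13 members (61.5%), near the 60.9% of all protein-coding genes. They included the target gene HES1 at 99.8, 112 and 103 TPM, the receptors NOTCH2 (16.1 ± 2.2 TPM), NOTCH3 (11.3, 17.7 and 13.1 TPM) and NOTCH1 (8.25 ± 0.922 TPM), and the ligand JAG1 (8.55, 12.4 and 7.73 TPM). HEY1, another target, was at 0.283 TPM. In the hedgehog pathway 7 of 11 genes passed (63.6%, also near that share), with SMO at 39.6, 61.8 and 42.7 TPM and PTCH1 at 11.9 ± 1.96 TPM. No hedgehog ligand was expressed: DHH was at 0.0433 TPM, IHH at 0.0133 TPM and SHH had no count.

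Matrix genes were uneven, with some abundant glycoproteins beside moderate collagens. Collagen chains were expressed for 19 of 44 genes (43.2%, against 60.9% of all protein-coding genes), 7 of them at 10 TPM or more and none at 100 TPM. COL16A1, a fibril-associated chain, was the highest at 98.2, 111 and 89.1 TPM, above the fibrillar chains COL3A1 (45, 57.1 and 43.5 TPM), COL5A2 (41.4, 43.5 and 40.3 TPM) and COL5A1 (22.1, 27.3 and 22.9 TPM). The chains of type I collagen, the main protein of bone, were lower, with COL1A1 at 4.98, 11.4 and 5.63 TPM and COL1A2 at 3.02, 6.11 and 3.14 TPM. Collagen VI is built from 3 different chains. COL6A1 had 21.9, 43.7 and 19.2 TPM and COL6A2 35.1, 58.3 and 34.3 TPM, whereas COL6A3 had 0.46, 0.47 and 0.4 TPM. Library 2 was the highest for COL1A1, COL1A2, COL6A1 and COL6A2. COL2A1, the collagen of cartilage, was at 0.05 TPM.

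Laminins assemble from an alpha, a beta and a gamma chain. Their chains passed for 6 of 12 genes (50%, against 60.9% of all protein-coding genes). LAMB2 had 75, 127 and 76.9 TPM, LAMB1 59.7, 56.8 and 51.5 TPM and LAMC1 45.1, 48.8 and 57.9 TPM. Every alpha chain was lower, with LAMA5 at 7.06, 7.77 and 5.95 TPM and LAMA3 at 2.24 ± 0.73 TPM. LAMB3, a beta chain of epithelial basement membranes, had 26.3, 22.2 and 30.2 TPM.

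Matrix glycoproteins were expressed for 29 of 46 genes (63.0%, near the 60.9% of all protein-coding genes). At 10 TPM or more were 20 and at 100 TPM or more 7, beside 40.4% and 6.99% of all protein-coding genes. MGP, the calcification inhibitor matrix Gla protein, had 1261, 1228 and 1135 TPM. MFAP4, a microfibril-associated protein, had 473, 681 and 513 TPM, and the latent TGF-beta binding gene LTBP4 had 181, 254 and 210.1 TPM. Tenascin-C (TNC) had 194, 113 and 225 TPM and SPARC 94.1, 159.8 and 87.1 TPM. Library 2 was the lowest for TNC and the highest for SPARC. Fibrillins FBN1 (40.5 ± 8.06 TPM) and FBN2 (25.8 ± 5.33 TPM), EMILIN1 (74.5 ± 3.4 TPM) and elastin (ELN, 14.3 ± 2.58 TPM) of the elastic fibre were expressed too. CCN2, also called CTGF, and CCN1, also called CYR61, had 95, 63.3 and 97.2 TPM and 73.6, 52.4 and 70.9 TPM.

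**Figure D4:**
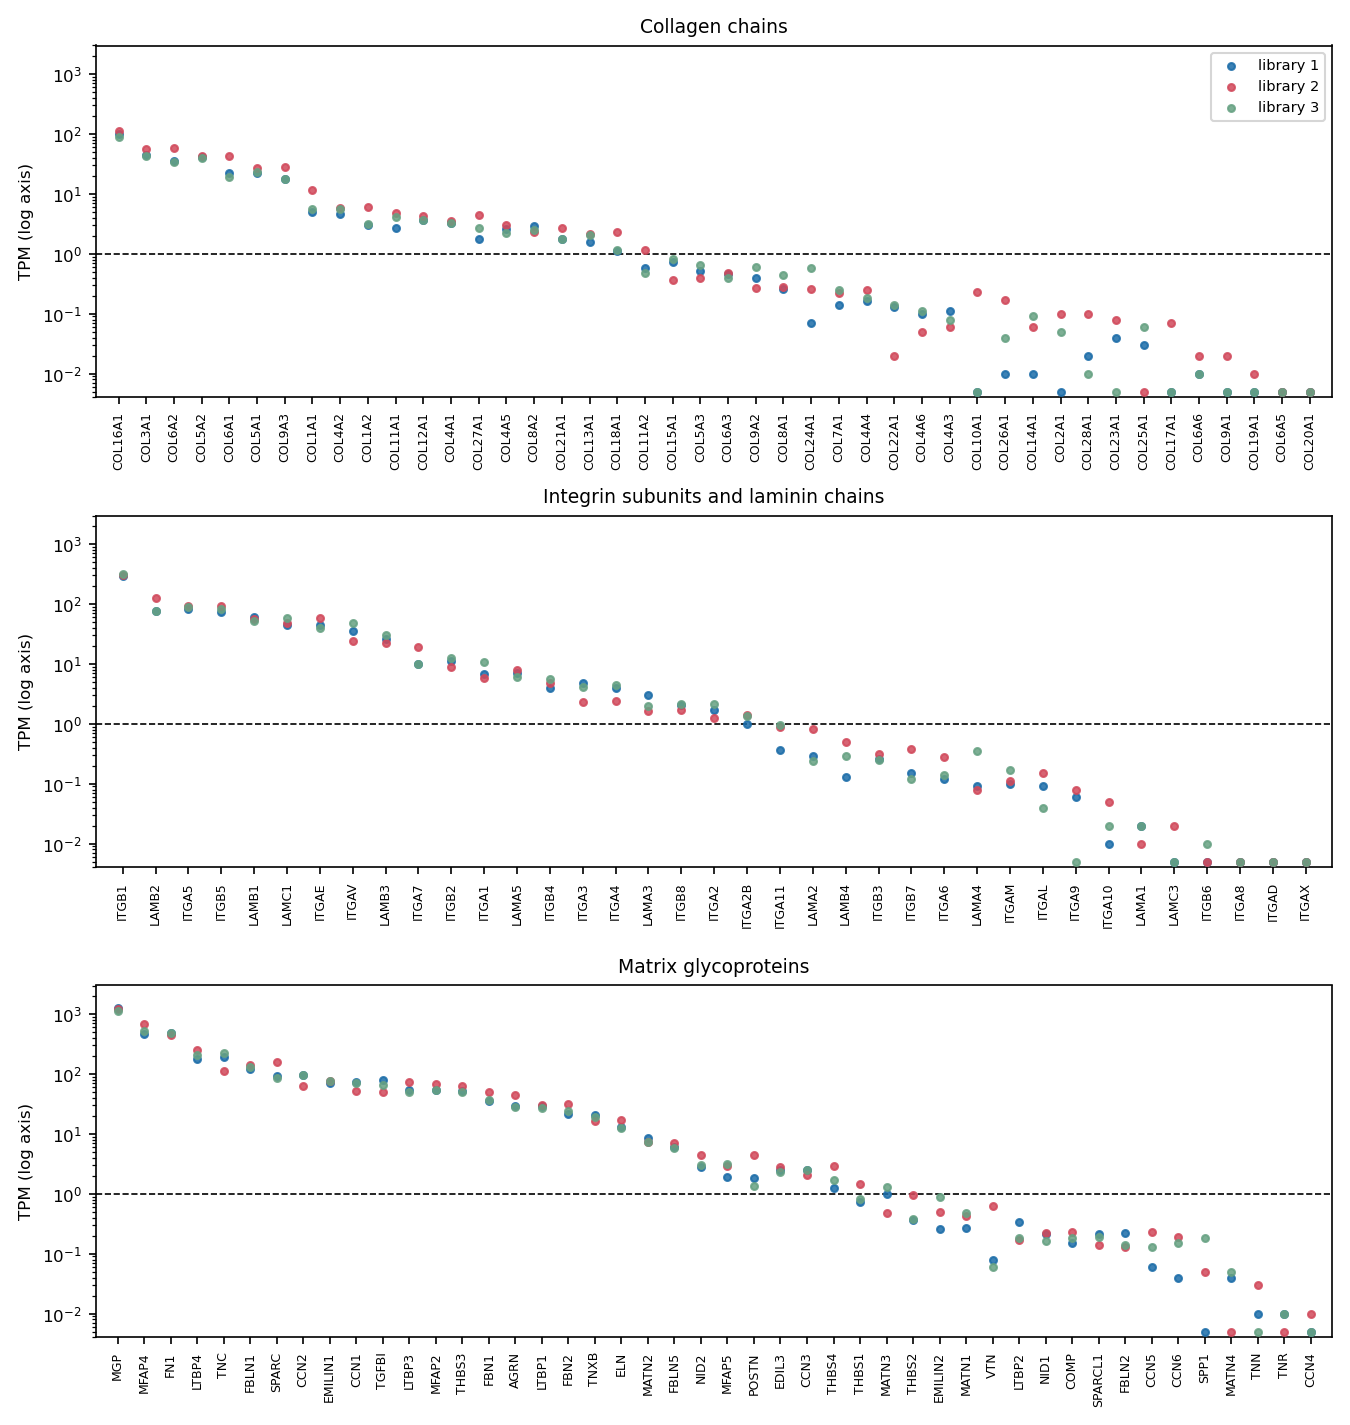
TPM of collagen chains (top), integrin subunits and laminin chains (middle) and matrix glycoproteins (bottom) in each vehicle library (points; y, log axis), each panel by falling mean, with 1 TPM as a dashed line. Values under 0.005 TPM are drawn at 0.005. MGP, MFAP4 and FN1 exceed every collagen chain, and the type I and type VI collagen points of library 2 lie above the other 2 libraries.

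Proteoglycans passed for 14 of 26 genes (53.8%, near the 60.9% of all protein-coding genes). They were led by fibromodulin (FMOD, 137, 178 and 143 TPM) and syndecan-2 (SDC2, 149.6, 115 and 159.7 TPM). Lumican (LUM, 17.9 ± 0.837 TPM) and biglycan (BGN, 13.5 ± 0.165 TPM) were expressed and decorin (DCN) had 10.1, 2.56 and 12.8 TPM, lowest in library 2. Versican (VCAN), common in fibroblast matrix, had no count in any library, which allows at most 0.00836 TPM. Crosslinking enzymes passed for 6 of 9 genes (66.7%, near the 60.9% of all protein-coding genes), with LOXL1 at 92.6, 92.1 and 82.8 TPM and LOX at 14.6 ± 1.12 TPM. Of 27 metalloproteinases and inhibitors 7 passed (25.9%): beside TIMP1 these included TIMP2 (111 ± 8.49 TPM), MMP14 (71.1, 72.8 and 73.2 TPM), MMP2 (35.6 ± 2.19 TPM) and MMP11 (21.1 ± 2.12 TPM). TIMP3 was at 0.0633 TPM, MMP9 at 0.487 TPM and MMP13 had no count.

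Adhesion receptor genes were expressed in part. Integrin subunits passed for 14 of 26 genes (53.8%, near the 60.9% of all protein-coding genes). ITGB1 led, followed by its fibronectin-binding partner ITGA5 (83, 91.9 and 89.5 TPM), ITGB5 (72.5, 91.8 and 84 TPM), ITGAE (47.4 ± 8.94 TPM) and ITGAV (35.7 ± 12.1 TPM). ITGAE had 2498 counts over the 3 libraries, against 12136 for ITGAV, so its higher TPM did not come with more reads. The part of transcript length in that order was not tested. The collagen-binding partners of ITGB1 were low, with ITGA1 at 7.82 ± 2.62 TPM, ITGA2 at 1.71 ± 0.455 TPM, ITGA11 at 0.73 TPM and ITGA10 at 0.0267 TPM. Of its laminin-binding partners, ITGA7 had 10.0, 19.5 and 9.96 TPM and ITGA3 4.75, 2.31 and 4.17 TPM, and ITGA6 was at 0.18 TPM. Of 22 listed cadherin genes 8 passed (36.4%, against 60.9% of all protein-coding genes). Osteoblast cadherin CDH11 had 107, 95.3 and 134 TPM, the neural cadherins CDH8 and CDH7 had 34.4 ± 5.69 and 16.1 ± 4.39 TPM, and both N-cadherin (CDH2, 0.29, 0.2 and 0.19 TPM) and E-cadherin (CDH1) were below the threshold.

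Antigen presentation genes of class I were expressed and those of class II were mostly not. B2M, the class I light chain, had 2535, 1842 and 2535 TPM and HLA-B 71, 90.1 and 66.1 TPM. The HLA values are uncertain because the genes are polymorphic and near-identical, and reads were assigned on a reference. The peptide transporter genes TAP1 and TAP2 were at 14.5 ± 0.85 and 9.64 ± 0.942 TPM. HLA-DRA had no count, the invariant chain CD74 was at 0.0467 TPM and the class II activator CIITA at 0.477 TPM, while both chains of HLA-DP were expressed, with HLA-DPB1 at 21.2, 27.5 and 26.1 TPM and HLA-DPA1 at 4.53, 5.68 and 5.81 TPM.

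Cell-cycle genes were expressed for 19 of 21 members (90.5%, against 60.9% of all protein-coding genes). At 10 TPM or more were 14 of them, beside 40.4% of all protein-coding genes. Among D cyclins, CCND1 far exceeded CCND3 (38.3, 46 and 38 TPM) and CCND2 (0.31, 0.04 and 0.12 TPM). Its partner CDK4 had 411, 511 and 405 TPM against 1.51, 0.98 and 1.71 TPM for CDK6. CDK1 (140.4 ± 2.73 TPM) and CCNB1 (307 ± 22.3 TPM), which drive mitosis, varied little between libraries. Of the inhibitors, CDKN2A was expressed at 10.5, 16.7 and 12.9 TPM, CDKN1A at 62.2, 39.2 and 70.3 TPM and CDKN2C at 69.9 ± 4.95 TPM, and CDKN2B was at 0.107 TPM. MYC had 231, 205 and 249 TPM and MYCN 0.97, 1.8 and 1.04 TPM. The ubiquitin ligase gene MDM2 had 84.6 ± 8.15 TPM. Of the cohesin and survival genes, STAG2 was at 3.58 ± 0.282 TPM, MCL1 at 97.7, 59.5 and 101 TPM and BCL2 at 5.6 ± 0.531 TPM.

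The most abundant protein-coding transcripts outside the mitochondrial genome were those of translation and the cytoskeleton. EEF1A1, elongation factor 1 alpha, had 12909 ± 709 TPM, followed by the ribosomal genes RPL41 (7812 ± 418 TPM), RPS27 (6780 ± 155 TPM) and RPLP0 (6464 ± 236 TPM). Actin (ACTB, 4995 ± 134 TPM) and GAPDH (4688 ± 344 TPM) ranked between ribosomal genes.

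The spread between libraries was small for most genes and depended on level. The coefficient of variation, the SD as a percentage of the mean, had a median of 11.3% over expressed protein-coding genes (5.50% without library 2), with 16.3% from 1 to 10 TPM, 10.2% from 10 to 100 TPM and 7.39% at 100 TPM or more. Among genes at 10 TPM or more, the kinase subunit PRKACA had 32.07, 32.11 and 32.09 TPM, and the adaptor UBFD1 had 35.58, 35.56 and 35.61 TPM. RETSAT, MFSD11, CDCA7L, SSBP3, HNRNPA0, SDF4, COQ6 and MAP4K5 followed, with coefficients of 0.103% to 0.226%. These are extremes picked from 8004 genes with 3 libraries each, so such a small value does not show a steadier gene. The widest spread was in LUZP6 (94.6%), complement C7 (78.8%), heat shock factor HSF4 (77.9%), SMIM11B (76.2%) and CSAD (72.0%). LUZP6 lies within the transcript of another gene and SMIM11B has a near-identical copy, so reads may be split unevenly there. Next came the synaptic vesicle gene SYNPR (71.8%), the secretogranin gene SCG2 (69.9%), DKK1 (66.2%), the histone gene HIST2H2AA4 (62.7%), which also has a near-identical copy, and the kinesin KIFC2 (57.6%). C7 had 16.1, 1.64 and 21.7 TPM and SCG2 had 33.7, 4.93 and 36.7 TPM. In both, and in DKK1, library 2 lay several-fold under the others.

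Most of the wide spread came from library 2. Of the 8004 genes at 10 TPM or more, library 2 was over 1.5-fold above both others in 133 and over 1.5-fold below both in 180. The same counts were 5 and 4 for library 1, and 7 and 6 for library 3. Over all 12054 expressed protein-coding genes the shares for library 2 were 3.69% above and 4.15% below. Of the 469 listed genes at a mean of at least 1 TPM, 39 were above and 52 below. Both are larger shares than over all expressed protein-coding genes. In TPM, collagen chains went one way: 8 of 19 expressed chains were above and none below (COL1A1, COL1A2, COL6A1, COL6A2, COL9A3, COL18A1, COL21A1 and COL27A1). COL21A1 had 142, 134 and 145 counts, the fewest in library 2, so its higher TPM there did not come with more reads. The part of transcript length in such TPM differences was not tested. The 3 expressed genes of the neuropeptide Y list were all below, as were 3 of 4 chemokines and 3 of 6 BMP and GDF ligands. The fusion lists went both ways, with 5 activated genes above (GLI1, SOX2, PPP1R1A, IGF1 and TERT) and 6 below (PRKCB, KDSR, NPY1R, NPY5R, EGR2 and CCK), and 7 repressed genes above and 9 below. Among genes outside the lists, chosen after their values were seen, the immediate early genes EGR1 (48.6, 17.1 and 55.2 TPM) and ARC (34.4, 10.6 and 41.1 TPM) and the EGF receptor inhibitor ERRFI1 (74.0, 23.1 and 81.0 TPM) were also lowest in library 2. The means given for all these genes therefore rest on 2 similar libraries and 1 that differs.

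**Figure D5:**
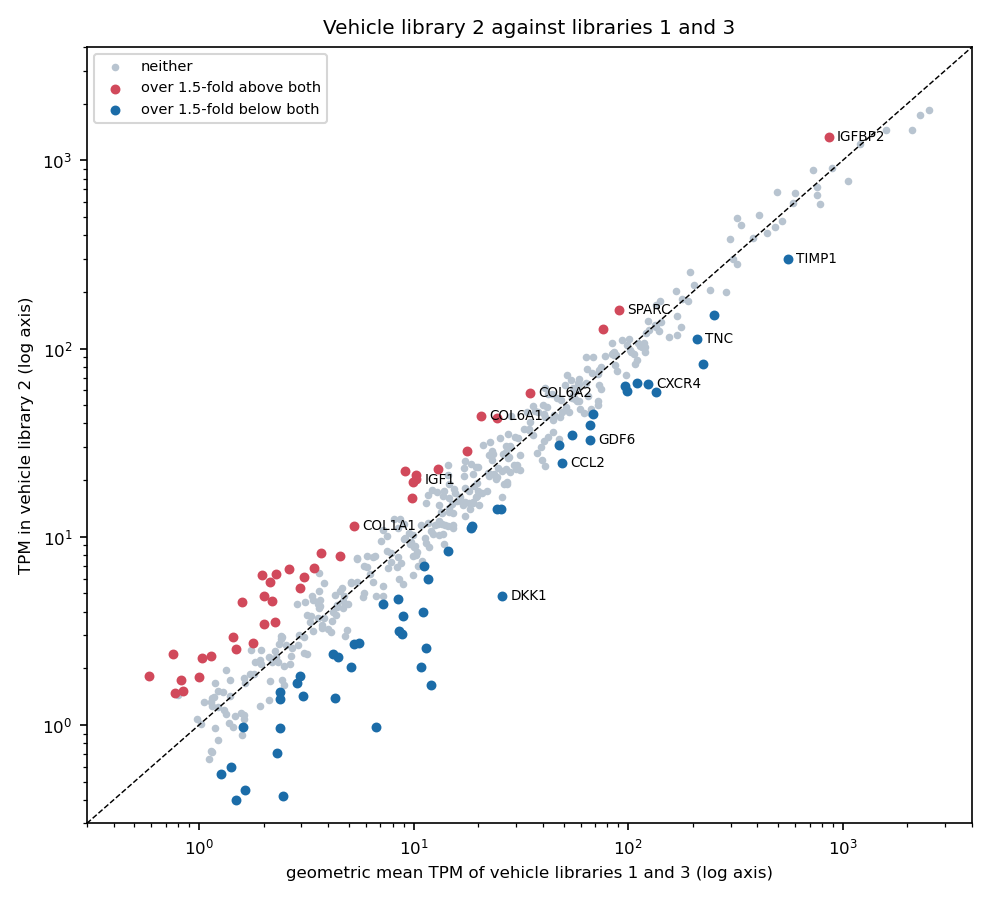
TPM of the listed genes at a mean of at least 1 TPM in vehicle library 2 (y, log axis) against the geometric mean of libraries 1 and 3 (x, log axis), with equality as a dashed line. Red points are over 1.5-fold above both other libraries (39 genes) and blue points over 1.5-fold below both (52 genes); labelled examples include COL1A1 and IGFBP2 above and DKK1 and CXCR4 below.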

How the data were processed

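Bulk RNA-seq of TC32 cells was analysed for the 3 vehicle libraries; the 6 libraries from treated cells were left out. Per the submitters' processing notes, CASAVA 1.8.2, Trimmomatic 0.36, STAR 2.5.2a and RSEM 1.2.31 were used with hg38, with no annotation release or strand setting stated there, so overlapping and antisense genes cannot be told apart. The deposited tables give, per the file headers, the authors' RSEM expected count, TPM, transcript length and effective length for each gene. TPM was used as deposited, and expected counts only for depth, counting noise and limits for genes without a count. The library totals were 34348339, 38637007 and 37577595, at which 1 count in 1000 effective bases is 0.0403, 0.0344 and 0.0372 TPM. Reads carry no molecular identifiers.

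Of 58278 rows, 45 pseudoautosomal copies were added to their partners, and 57895 of 58233 IDs (99.4%) were found in GENCODE release 29, which gave gene types and coordinates. Means, SDs and coefficients of variation were computed with Python 3.11.15, numpy 2.4.6 and pandas 2.3.3. The script was tested on simulated data with known spread. edgeR 4.0.16 in R 4.3.3 gave TMM scaling factors as an alternative only. Promoter windows are from RefSeq (GRCh38.p14). Genes come from 52 lists of 894 symbols, 7 of them matched through current names. The rule for named genes covered the 5 markers, up to 6 members of each list with the highest means, members under 0.1 TPM, the most abundant genes, the 10 genes each of widest and narrowest spread and a fixed panel; some other genes were named after their values were seen, and a few members are counted but not reported by name here. Members and lists were chosen with earlier results of these data known. Alternatives were thresholds of 0.5 and 2 TPM, a call in every library, rescaled TPM, TMM scaling and each library left out.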

Additional observations from a re-analysis of the deposited data

How the results depend on the processing

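Counts of expressed genes changed with the threshold where a list has few members near it. At 0.5 TPM in place of 1 TPM, skeletal muscle markers passed for 2 genes (1 before), bone and cartilage for 3 (0 before), endothelial for 3 (1 before), EGF ligands for 5 (3 before) and Wnt ligands for 4 (2 before). At 2 TPM, fat markers passed for 1 gene, epithelial for 1, Wnt ligands for 1 and chemokines and cytokines for 2. With a call in every library, fat markers passed for 1 gene and chemokines and cytokines for 2. With TPM rescaled over protein-coding genes outside the mitochondrial genome, bone and cartilage passed for 2 genes and endothelial for 2. With 1 library left out, bone and cartilage passed for 1 to 1 gene and endothelial for 1 to 2. The median coefficient of variation of 11.3% ranged from 5.50% without replicate 2 to 11.6%, and the share of TPM in the 10 most abundant genes, 8.49%, was 7.24% outside the mitochondrial genome. The other list counts stayed within 1.5 times. Protein-coding genes called expressed numbered 11286 at 2 TPM, 12838 at 0.5 TPM, 11701 with a call in every library, 12228 rescaled, 12051 with TPM recomputed from expected counts, 12052 with TMM scaling and 12018 to 12084 with 1 library left out. Rescaling multiplies every level by 1.17 to 1.18, which exceeded 1 SD for 158 of 307 genes followed; TMM scaling moved none of them by 1 SD, and leaving out 1 of 3 libraries cannot. Of the listed genes, 8 lost and 5 gained the call without library 2, against 4 and 3 without library 1 and 7 and 3 without library 3. No paired analysis was possible because the values come from no test and from 1 group. Depth limits genes below 1 TPM, where the spread is wide, and 3 libraries of 1 line in 1 condition say nothing of other Ewing cells.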
